A study of Mus musculus with 8 samples.

Results

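Genes that mark regulatory T cells were followed in activated mouse T cells kept with or without human beta-defensin-2 (hBD-2), a cationic host defence peptide made by epithelia. The set holds 10 genes chosen by symbol, namely Ikzf2, Ikzf4, Ebi3, Lrrc32, Nrp1, Itgae, Gpr83, Capg, Izumo1r and Nt5e. Of these, 9 were matched to a probe set, of 19505 genes measured in all, and each of the 9 had 1 probe set. Nrp1 was not matched and was not analysed here. The cells were T cells of the CD4 and CD8 lineages from the spleens of male wildtype C57BL/6 mice, 4 in the study. They were isolated with a kit for untouched T cells and stimulated through CD3 and CD28 with antibody-coated microbeads for 48 h. In the control group (4 arrays) phosphate-buffered saline, PBS, was added as vehicle, and in the other group (4 arrays) hBD-2 was added. Its amount is labelled 60 µL/mL, which names a volume and leaves the mass concentration unknown. All groups shared the strain, the sex, the stimulus and the duration. The cells were not sorted for regulatory T cells, so every value is an average over all T cells in a well, and fewer cells of a type cannot be told apart from less RNA per cell.

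Regulatory T cells are CD4 T cells that hold other immune cells in check and depend on the transcription factor Foxp3. The genes followed here are known for being higher in them than in conventional CD4 T cells, but none of them is exclusive to them. Ikzf2 encodes Helios and Ikzf4 encodes Eos, both zinc finger transcription factors of the Ikaros family. Ebi3 encodes a secreted cytokine subunit that pairs with the products of Il27 or Il12a. Lrrc32 encodes GARP, which holds latent TGF-beta at the cell surface. Itgae encodes the integrin chain CD103, Gpr83 a G protein-coupled receptor, Izumo1r the folate receptor family protein FR4, and Nt5e the ecto-enzyme CD73, which makes adenosine from AMP. Capg encodes an actin filament capping protein. In activated cultures some of these genes are also used by other T cells, Nt5e and Itgae by CD8 T cells among them.

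Promoter sequences are shown for Ebi3, whose RNA fell, for Capg, whose groups did not overlap, and for Gpr83 and Izumo1r. The last pair lie beside each other on chromosome 9 with 0 protein-coding genes between them in the gene table of the assembly GRCm38.p6. Each line gives the 250 bases before the gene's start, 5′ to 3′ on the gene's strand, from RefSeq on GRCm38.p6. Of the 10 genes, 6 had a promoter entry. Capitals mark matches, on either strand, to a kappa B core (GGGNNNNNCC), an AP-1 motif (TGANTCA), a forkhead core (TGTTTNC) or an Ikaros core (TGGGAA).
Ebi3, chr17:55952373-55952622, + strand: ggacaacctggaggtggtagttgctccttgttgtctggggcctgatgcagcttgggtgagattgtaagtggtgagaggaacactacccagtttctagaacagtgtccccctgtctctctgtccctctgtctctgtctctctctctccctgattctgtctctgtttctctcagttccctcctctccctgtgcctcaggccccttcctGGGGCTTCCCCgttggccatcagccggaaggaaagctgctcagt
Capg, chr6:72549397-72549646, + strand: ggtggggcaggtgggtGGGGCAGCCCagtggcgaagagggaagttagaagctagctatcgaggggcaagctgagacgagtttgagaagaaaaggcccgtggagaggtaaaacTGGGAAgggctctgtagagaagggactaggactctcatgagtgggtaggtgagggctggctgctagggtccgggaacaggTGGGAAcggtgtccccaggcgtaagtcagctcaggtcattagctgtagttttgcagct
Gpr83, chr9:14859960-14860209, + strand: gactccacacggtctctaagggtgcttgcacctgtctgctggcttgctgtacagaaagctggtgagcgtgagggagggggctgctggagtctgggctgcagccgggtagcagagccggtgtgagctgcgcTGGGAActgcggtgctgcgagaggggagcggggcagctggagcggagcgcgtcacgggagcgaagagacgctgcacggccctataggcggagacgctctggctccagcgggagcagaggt
Izumo1r, chr9:14903768-14904017, - strand: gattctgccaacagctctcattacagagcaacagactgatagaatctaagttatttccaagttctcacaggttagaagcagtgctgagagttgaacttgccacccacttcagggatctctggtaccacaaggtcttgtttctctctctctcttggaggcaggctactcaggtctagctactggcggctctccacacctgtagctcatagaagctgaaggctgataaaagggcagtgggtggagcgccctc
The Ebi3 promoter held GGGGCTTCCCC, which contains the kappa B core on both strands, from 44 to 34 bases before the start. The Capg promoter held the kappa B core as GGGGCAGCCC, from 234 to 225 bases before the start, and the Ikaros core at 2 places. Gpr83 held the Ikaros core at 1 place, and the Izumo1r window held none of the 4 motifs. Over all 32851 promoter windows of this length, 45.8% held the kappa B core, 6.75% the AP-1 motif, 17.8% the forkhead core and 21.6% the Ikaros core, so these matches are common. They are descriptions of the letters, and no binding was measured here.

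Values are log2 expression after RMA (robust multi-array average, a method that removes background, brings arrays to a common scale and joins the probes of a gene), so a difference of 1 is a 2-fold change. Arrays were alike, with pairwise Pearson correlations over all genes between 0.990 and 0.994 inside a group and between 0.983 and 0.992 across groups. The spread of values on an array, as the interquartile range, was 3.64 to 3.76 on PBS arrays and 3.45 to 3.64 on hBD-2 arrays. Differences were tested with limma, fitted to all 19505 genes at once, with Benjamini-Hochberg adjustment over all of them, and "past the threshold" means an adjusted p under 0.05. By that rule 4.46% of all genes changed, 0.8% higher and 3.66% lower with hBD-2. Of the calls 82.0% were lower, against 69.7% with quantile normalization repeated, 72.4% with cyclic loess and 73.0% after the trend of each array against mean level was taken out (called the level trend). B cell RNA differed between arrays of the same group. The mean over 9 B cell markers was 4.57, 5.33, 4.72 and 5.50 on PBS replicates 1 to 4 and 4.75, 6.02, 4.71 and 5.93 on hBD-2 replicates 1 to 4, so that replicates 2 and 4 were the high arrays in both groups. All 9 measured signature genes had mean levels above the arrays' lower quartiles, which were 3.62 to 3.78. No label ties an array to a mouse, so the p-values measure the spread between these arrays.

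Of the 9 measured genes, 1 fell with hBD-2, Ebi3, none rose, and 8 were not past the threshold, a share read against the 4.46% of all genes. Fold changes ran from -0.75 for Ebi3 to 0.38 for Ikzf2 on the log2 scale, with a median of -0.15 against 0.02 over all genes. The log2 fold change was below 0 in 8 of the 9 genes, compared with 46.1% of all genes. That share is not matched for level, since all 9 lay above percentile 40 of mean level. With genes under that percentile left out, the median over all genes was -0.029. The groups of 4 arrays did not overlap in 2 of the 9 genes, Ebi3 and Capg, both lower, and this was so in 14.9% of all genes in either direction and 9.36% in the lower direction (5.51% in the higher). At an unadjusted limma p under 0.05 there were 3 genes, Ebi3, Ikzf2 and Capg, against 22.3% of all genes.

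**Figure D1:**
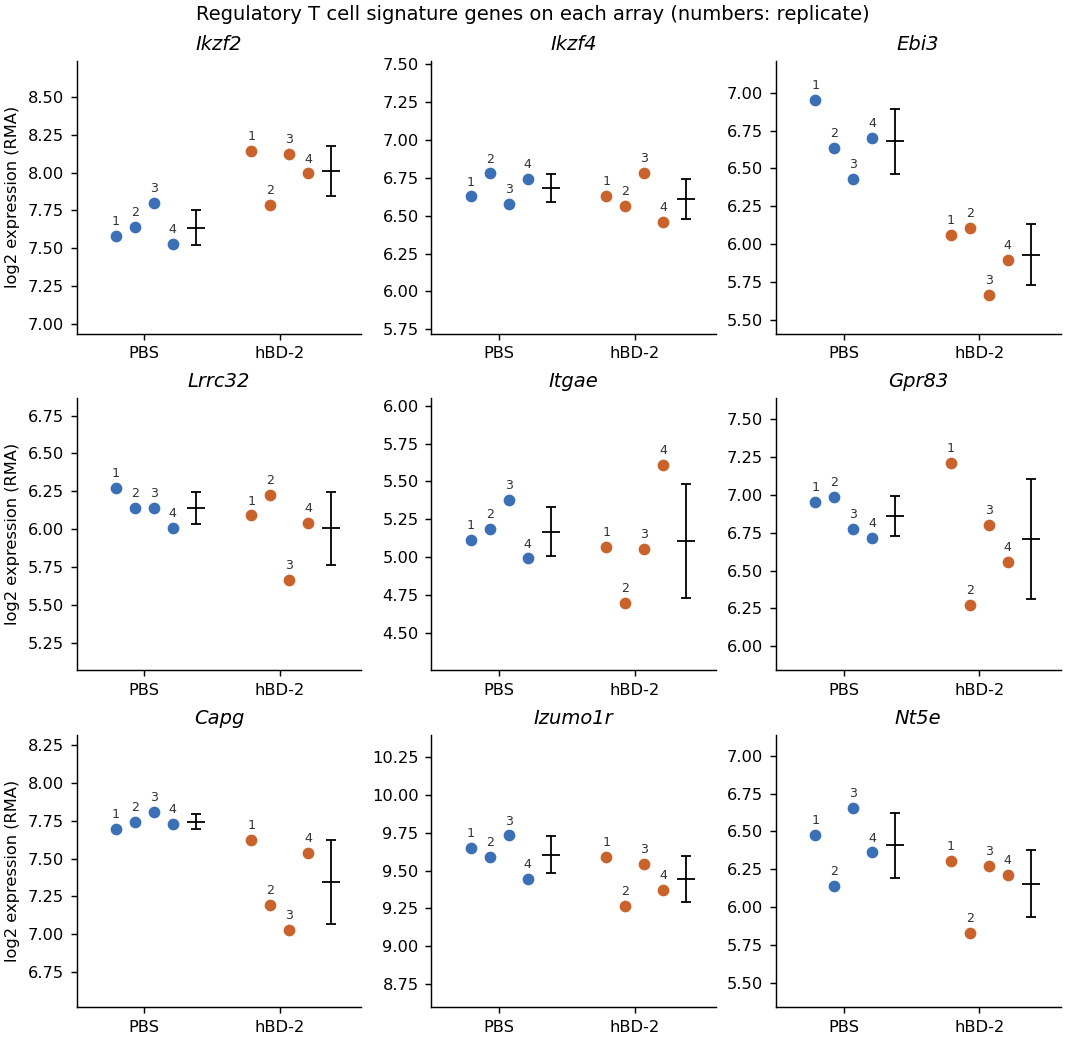
Log2 expression (vertical axis, RMA values, each panel spanning the same number of log2 units) of the 9 measured genes on the 4 PBS arrays (blue) and the 4 hBD-2 arrays (orange). Small numbers are replicate numbers, and the black bar beside each group is the mean with its SD. Ebi3 lies lower on every hBD-2 array, at 5.67 to 6.10 against 6.43 to 6.95, and Ikzf2 comes within 0.01 of parting the groups in the other direction.

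Ebi3, the secreted cytokine subunit, was the gene that fell. It stood at 6.95, 6.64, 6.43 and 6.70 on PBS replicates 1 to 4 and at 6.06, 6.10, 5.67 and 5.89 on hBD-2 replicates 1 to 4. Every hBD-2 array was below every PBS array, with 0.33 log2 units between the nearest pair. The mean went from 6.68 ± 0.215 (SD, n = 4) to 5.93 ± 0.199, a fall of 1.68-fold with a 95% interval of 1.38-fold to 2.05-fold. On the log2 scale the change was -0.75 with an SE of 0.132 (limma adjusted p = 0.00973). The call held with any 1 array left out (limma adjusted p from 0.0105 to 0.0351). It was lost without hBD-2 replicates 3 and 4 together (log2 fold change -0.60, limma adjusted p = 0.129), the arrays with the narrowest interquartile ranges. With those arrays left out, 128 of all genes passed, against 869 with every array. Without replicates 2 and 4 of both groups, the arrays with most B cell RNA, the log2 fold change was -0.83 and not past the threshold (limma adjusted p = 0.377), where 8 of all genes passed with 2 arrays a group.

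The 2 known partners of Ebi3 lay near the floor of the arrays. Il27, whose product joins Ebi3 in the cytokine interleukin-27, was at 3.87 ± 0.133 and 3.98 ± 0.195 (SD, n = 4 each), with limma adjusted p = 0.626. Il12a, whose product joins Ebi3 in interleukin-35, was at 3.09 ± 0.191 and 3.16 ± 0.126 (limma adjusted p = 0.764). Levels this low, near or under the arrays' lower quartiles, may hide a change. Receptor chains that these cytokines use were well above that level, and the log2 fold change was -0.06 for Il27ra, 0.16 for Il6st and 0.11 for Il12rb2. Of 8 measured interleukin-12 family subunits and receptors besides Ebi3, none was past the threshold, and the median log2 fold change was 0.09. At an unadjusted limma p under 0.05 there was 1 of the 8, against 22.3% of all genes. It was Il23r, a subunit of the interleukin-23 receptor, at 3.42 ± 0.231 and 3.78 ± 0.169 (limma adjusted p = 0.137). Il23r, too, lay near the floor.

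By the root mean square difference between centred values on the 8 arrays, the genes with a pattern nearest to that of Ebi3 were Fancd2, of DNA crosslink repair, Fkbp2, a prolyl isomerase of the endoplasmic reticulum, and Hmox1, the heme oxygenase. Their differences from Ebi3 were 0.0845, 0.0881 and 0.0924 log2 units, against a median of 0.418 over 11235 genes compared. Their log2 fold changes were -0.61, -0.60 and -0.74. The match used all 8 arrays, so a fall near that of Ebi3 was built into the choice and is no separate result.

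Ikzf2, the Helios gene, was higher in mean with hBD-2 and missed the threshold. PBS replicates 1 to 4 were at 7.58, 7.64, 7.80 and 7.53 and hBD-2 replicates 1 to 4 at 8.14, 7.79, 8.12 and 7.995. The groups overlapped by 0.01 log2 units, because hBD-2 replicate 2 lay just under PBS replicate 3. The means were 7.64 ± 0.117 and 8.01 ± 0.165 (SD, n = 4), a 1.297-fold difference with a 95% interval of 1.10-fold to 1.53-fold. On the log2 scale this was 0.38 with an SE of 0.107 (limma adjusted p = 0.0721). The gene passed the threshold when the arrays were brought to a common spread, with log2 fold changes of 0.47 after quantile normalization (limma adjusted p = 0.0408), 0.46 after cyclic loess (0.0433) and 0.45 with the level trend removed (0.0439). It also passed with genes under percentile 40 of mean level left out (limma adjusted p = 0.0340), with a variance trend (0.0133) and without hBD-2 replicate 2 (0.0465).

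Ikzf4, the Eos gene, was at 6.63, 6.78, 6.58 and 6.74 on the PBS arrays and at 6.63, 6.57, 6.78 and 6.46 on the hBD-2 arrays, and the groups overlapped widely. Its log2 fold change of -0.07 had a 95% interval from -0.29 to 0.14 (limma adjusted p = 0.719). The other measured Ikaros family genes, Ikzf1, Ikzf3 and Ikzf5, were also not past the threshold. Ikzf3 (Aiolos) was at 9.05 ± 0.143 and 9.27 ± 0.0734 (limma adjusted p = 0.206), Ikzf5 had a log2 fold change of 0.09, and Ikzf1 (Ikaros) had one of -0.04 that turned to 0.04 with quantile normalization.

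**Figure D2:**
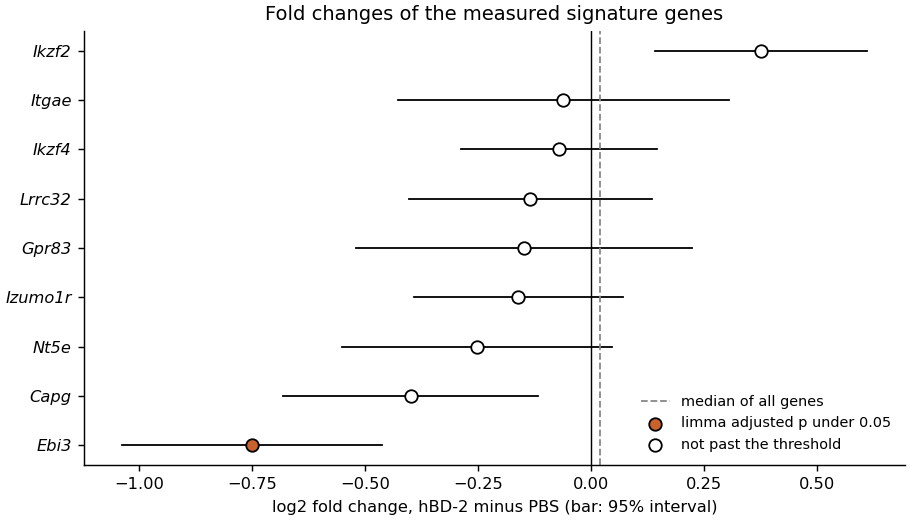
Log2 fold change, hBD-2 minus PBS (horizontal axis), of the 9 measured genes with the 95% interval of the limma fit as a bar. The filled point, Ebi3 at -0.75, is past the threshold, and open points are not. The dashed line is the median of all genes, 0.02.

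Capg, the actin capping protein gene, was lower in mean and did not pass. Its PBS arrays were close together, at 7.70, 7.74, 7.81 and 7.73, while its hBD-2 arrays spread from 7.62 and 7.54 (replicates 1 and 4) down to 7.19 and 7.03 (replicates 2 and 3). All hBD-2 arrays were under all PBS arrays, by 0.07 log2 units at the nearest. The log2 fold change of -0.40 had an SE of 0.129 (95% interval -0.68 to -0.12, limma adjusted p = 0.102). It passed the threshold with a variance trend (limma adjusted p = 0.0251) and without hBD-2 replicate 1 (0.0409).

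Of 11 other genes of actin capping and severing, 1 fell, 1 rose and 9 were not past the threshold, with a median log2 fold change of -0.09. Gsn (gelsolin), which severs and caps actin filaments, fell from 6.10 ± 0.177 to 5.45 ± 0.133, or 1.57-fold (log2 fold change -0.65, limma adjusted p = 0.00942). Scin (scinderin), of the same family, rose 1.56-fold, from 4.30 ± 0.329 to 4.94 ± 0.216 (limma adjusted p = 0.0479). Scin no longer passed after quantile normalization, after cyclic loess or with the level trend removed, and with single arrays left out it did not pass (limma adjusted p up to 0.131) unless the array left out was PBS replicate 3 or hBD-2 replicate 1.

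Lrrc32, which carries latent TGF-beta on the cell surface, did not differ beyond the spread between arrays. It was at 6.27, 6.14, 6.14 and 6.01 with PBS and at 6.09, 6.22, 5.67 and 6.04 with hBD-2, where replicate 3 was the low array. Its log2 fold change was -0.13 (95% interval -0.40 to 0.14, limma adjusted p = 0.563). Of 22 genes of latent TGF-beta handling and response, 1 fell, none rose and 21 were not past the threshold (median 0.09). The gene that fell was Hsp90b1, a chaperone of the endoplasmic reticulum that folds GARP and integrins, by 1.303-fold (10.96 ± 0.0741 to 10.58 ± 0.0709, limma adjusted p = 0.0348). Hsp90b1 no longer passed after quantile normalization, after cyclic loess or with the level trend removed (limma adjusted p up to 0.0617), and with single arrays left out it did not pass (up to 0.104) unless the array left out was PBS replicate 3 or hBD-2 replicate 1. Tgfb1 itself, the ligand that GARP holds, was at 10.12 ± 0.0544 and 10.19 ± 0.135 (limma adjusted p = 0.692).

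Itgae, the alpha chain of CD103, varied more between hBD-2 arrays than between PBS arrays. PBS arrays were at 5.12, 5.18, 5.38 and 4.99, and hBD-2 arrays at 5.07, 4.70, 5.05 and 5.61. Both the lowest and the highest of the 8 values were thus in the hBD-2 group, on replicates 2 and 4. The log2 fold change was -0.06 with a wide 95% interval of -0.43 to 0.30 (limma adjusted p = 0.865), and it turned to 0.07 without hBD-2 replicate 2 and to 0.01 without PBS replicate 3. Itgb7, the beta chain that pairs with CD103, was at 8.74 ± 0.127 and 8.75 ± 0.188 (limma adjusted p = 0.972). The beta chains of other T cell integrins fell: Itgb1 1.47-fold (log2 fold change -0.56, limma adjusted p = 0.00964) and Itgb2 1.41-fold (log2 fold change -0.50, limma adjusted p = 0.0102). Of the 6 genes in that list, these 2 fell and 4 were not past the threshold.

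Gpr83, the receptor gene, had the widest hBD-2 range of the 9 genes. It was at 6.96, 6.99, 6.77 and 6.72 on PBS arrays and at 7.21, 6.27, 6.802 and 6.56 on hBD-2 arrays. Here, too, hBD-2 arrays held both extremes, with replicate 1 highest and replicate 2 lowest. The log2 fold change was -0.15 (95% interval -0.52 to 0.22, limma adjusted p = 0.656).

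Izumo1r, next to Gpr83 on the chromosome, was at 9.65, 9.59, 9.73 and 9.45 with PBS and at 9.59, 9.27, 9.55 and 9.37 with hBD-2. Replicate 2 was again the lowest hBD-2 array and replicate 1 the highest, and the groups overlapped. The log2 fold change was -0.16 (95% interval -0.39 to 0.07, limma adjusted p = 0.397). Among 4 genes of folate receptors and carriers, none was past the threshold. Slc19a1, the reduced folate carrier, was at -0.42 on the log2 fold change scale (limma adjusted p = 0.0621). It passed with genes under percentile 40 left out (limma adjusted p = 0.0295), with a variance trend (0.00554), with array weights (0.0492) and without hBD-2 replicate 1 (0.0166). Folr2 was near the floor at 3.52 ± 0.0941 and 3.71 ± 0.216 (limma adjusted p = 0.351).

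Nt5e (CD73) was at 6.48, 6.14, 6.65 and 6.36 with PBS and at 6.31, 5.83, 6.27 and 6.21 with hBD-2. Only hBD-2 replicate 2 lay below every PBS array. The log2 fold change of -0.25 had an SE of 0.136 (95% interval -0.55 to 0.05, limma adjusted p = 0.299). Entpd1 (CD39), which acts before CD73 by turning ATP and ADP into AMP, was at 7.09 ± 0.0561 and 6.74 ± 0.192, without overlap and without passing (log2 fold change -0.35, limma adjusted p = 0.0848). It passed with genes under percentile 40 left out (limma adjusted p = 0.0408), with a variance trend (0.0411) and without hBD-2 replicate 3 (0.0444). Of 11 genes of purine nucleotide and adenosine handling, 1 fell, Slc29a1, a nucleoside transporter, by 1.36-fold (limma adjusted p = 0.0466), and 10 were not past the threshold. Slc29a1 no longer passed under the same 3 normalizations, and with single arrays left out it did not pass (limma adjusted p up to 0.126) unless the array was hBD-2 replicate 1 or 2.

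The arrays did not rank alike across the 9 genes. The hBD-2 replicate 2 array was the lowest of its group in 5 of 9 genes (Ikzf2, Itgae, Gpr83, Izumo1r and Nt5e), against 23.2% of all genes. The hBD-2 replicate 1 array was the highest of its group in 5 of 9, against 27.3% of all genes. Among the PBS arrays, replicate 4 was the lowest in 5 of 9 (23.9% of all genes) and replicate 3 the highest in 5 of 9 (26.4%). The arrays most often lowest, hBD-2 replicate 2 and PBS replicate 4, had the highest B cell marker mean of their group (6.02 and 5.50). Other arrays did not follow this order. The hBD-2 replicate 4 array, at 5.93, and PBS replicate 2, at 5.33, were each the lowest in 1 of 9 genes. The hBD-2 replicate 3 array, at 4.71, was the lowest in 3. Cd79a, a part of the B cell receptor, was at 7.86 on hBD-2 replicate 2 and 6.84 on PBS replicate 4, against 5.23 on hBD-2 replicate 1 and 4.85 on PBS replicate 3. Cd79b varied less, at 6.39, 6.17, 6.22 and 6.04 on the same arrays. On hBD-2 replicate 4 and PBS replicate 2, seldom the lowest arrays, Cd79a was nearly as high, at 7.76 and 6.60. The part of B cell RNA in this ranking was not tested. Without replicates 2 and 4 of both groups, none of the 9 genes passed, with log2 fold changes of 0.45 for Ikzf2 and -0.43 for Capg, and the sign turned for Gpr83 (0.14) and Ikzf4 (0.10). These genes share their arrays, so the counts describe these cultures only.

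**Figure D3:**
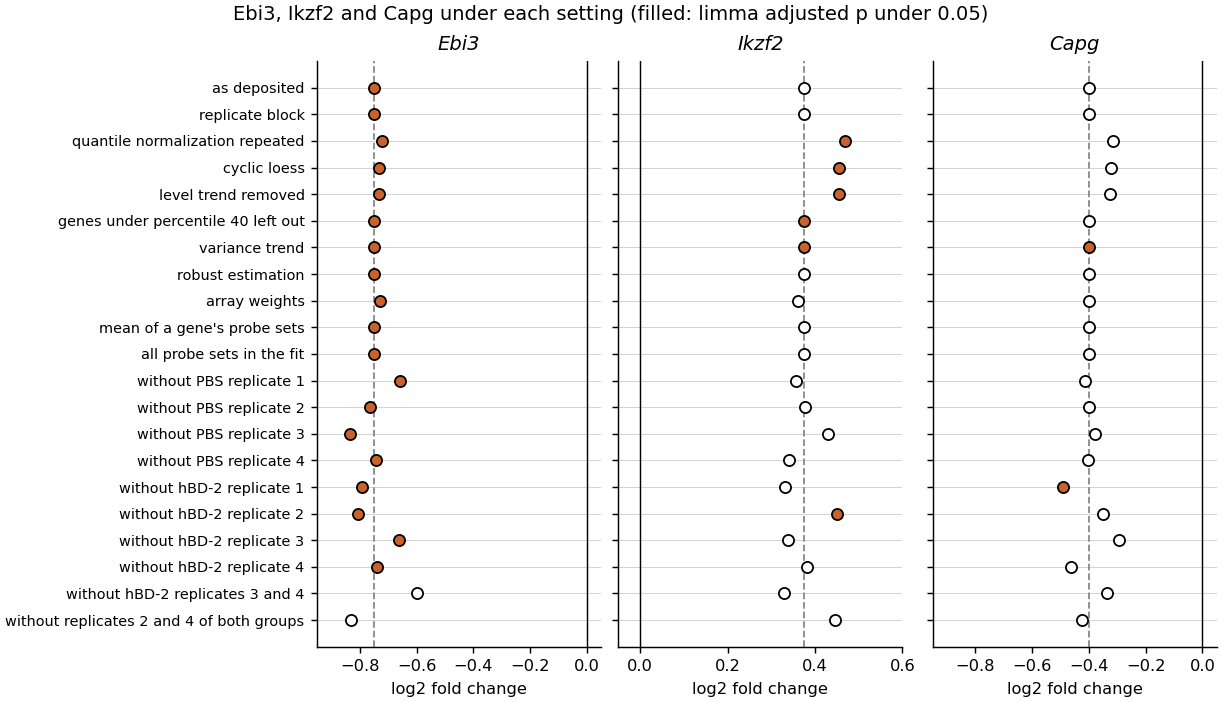
Log2 fold change, hBD-2 minus PBS (horizontal axis), of Ebi3, Ikzf2 and Capg under each setting (vertical axis), with filled points where the limma adjusted p was under 0.05 and a dashed line at the value from the deposited data. Ebi3 lost its call in 2 settings, without hBD-2 replicates 3 and 4 and without replicates 2 and 4 of both groups, while Ikzf2 and Capg gained one in 6 and 2 settings.

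Other receptors and cytokines known from regulatory T cells included genes that fell. Of 16 measured, 3 fell, none rose and 13 were not past the threshold, with a median log2 fold change of -0.24. Over all genes, 3.66% fell and 0.8% rose by that rule. The log2 fold change was below 0 in 11 of the 16. Ctla4, also in this list, was at 10.18 in both groups (limma adjusted p = 0.980). Fgl2, a fibrinogen-like protein that regulatory T cells secrete, fell 1.59-fold, from 6.45 ± 0.122 to 5.78 ± 0.207 (limma adjusted p = 0.00964). Il2ra (CD25), which makes the receptor for interleukin-2 high in affinity, fell 1.67-fold (8.67 ± 0.190 to 7.93 ± 0.373, limma adjusted p = 0.0342). Icos, a co-stimulatory receptor, fell 1.33-fold (limma adjusted p = 0.0307). With single arrays left out, Il2ra and Icos did not pass (limma adjusted p up to 0.0977 and 0.0965) unless the array left out was PBS replicate 3 or hBD-2 replicate 1, and Icos did not pass after quantile normalization (0.0515). Activated conventional T cells carry Il2ra and Icos as well. Foxp3 was not matched and was not analysed here.

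Transcription factors and other nuclear regulators linked to Foxp3 were mixed. Of 20 measured, 2 fell, 1 rose and 17 were not past the threshold (median 0.08). Prdm1, which encodes Blimp-1, a regulator of effector differentiation, fell 2.68-fold, from 5.68 ± 0.229 to 4.26 ± 0.397 (limma adjusted p = 0.00183). Xbp1, of the unfolded protein response, was 1.61-fold lower (limma adjusted p = 0.0193) and did not pass without PBS replicate 1, 2 or 4 or hBD-2 replicate 3 or 4 (up to 0.0667). Nr4a1, an orphan nuclear receptor induced by T cell receptor signals, was 1.34-fold higher (limma adjusted p = 0.0388) and, with single arrays left out, passed only without hBD-2 replicate 1 (otherwise up to 0.110).

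Genes that work with neuropilin were counted although Nrp1 itself was not matched. Of 15, 2 fell and 13 were not past the threshold (median -0.12). Plxnd1, a plexin, fell 1.68-fold, from 6.13 ± 0.0640 to 5.38 ± 0.189 (limma adjusted p = 0.00327). Vegfa, the vascular growth factor, was 1.42-fold lower (limma adjusted p = 0.0408) and did not pass under the same 3 normalizations or with a single array left out other than hBD-2 replicate 1 (up to 0.113). Over all 10 related lists, 14 of 115 measured genes were past the threshold, 2 higher and 12 lower, or 12.2% against 4.46% of all genes. That count was 6 to 18 with any 1 array left out, 18 without hBD-2 replicate 1 and at most 8 without PBS replicate 1, 2 or 4 or hBD-2 replicate 2, 3 or 4. The lists were chosen with earlier results of these data known, so the higher share may come from that choice. The 4.46% also covers the dimmest genes. With genes under percentile 40 of mean level left out, 1541 of the remaining genes passed, against 869 of all 19505. The share among brighter genes was thus well above 4.46% in that fit, and the 12.2% is not matched for level.

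**Figure D4:**
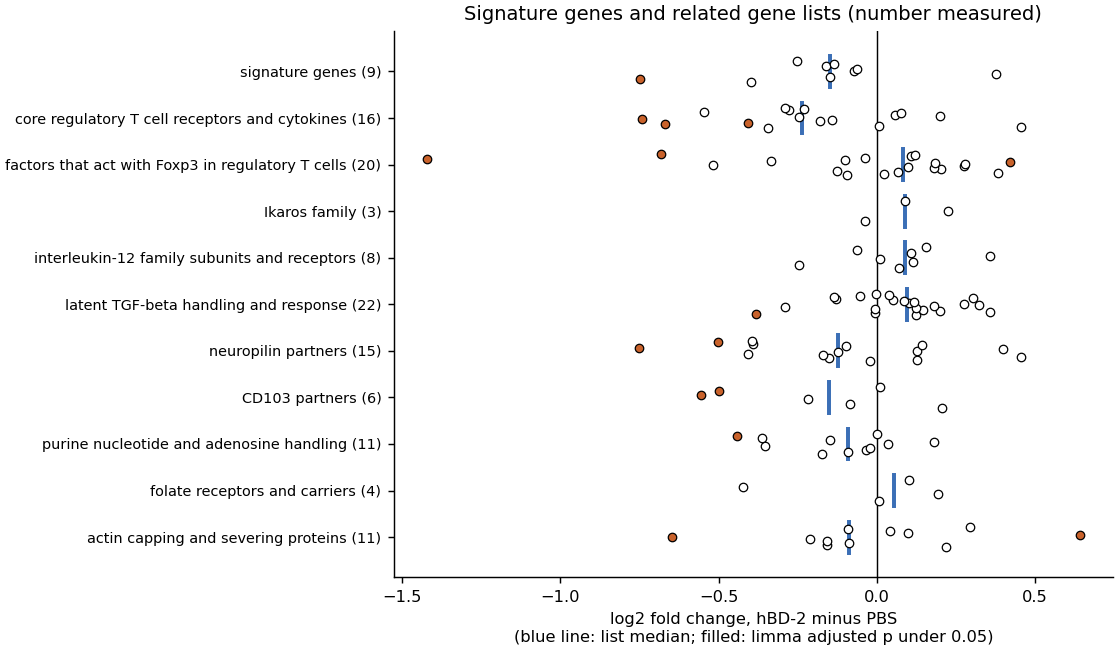
Log2 fold change, hBD-2 minus PBS (horizontal axis), of every measured gene of the signature and of the 10 related lists (vertical axis, number measured in brackets), with filled points past the threshold and a blue line at each list's median. List medians lie between -0.24 and 0.09, and Prdm1 at -1.42 is the point farthest to the left.

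None of 12 T cell lineage markers was past the threshold, and the mean over that list was 10.25 to 10.34 on PBS arrays and 10.27 to 10.36 on hBD-2 arrays. Cd4 was at 9.77 ± 0.0989 and 9.81 ± 0.147, Cd8a at 10.71 ± 0.0410 and 10.83 ± 0.0417, and Cd3e at 11.54 ± 0.0329 and 11.47 ± 0.0356 (limma adjusted p = 0.888, 0.390 and 0.671). Ebi3 and Capg are also made by B cells, dendritic cells or macrophages. No B cell marker (of 9), conventional dendritic cell marker (of 7) or plasmacytoid dendritic cell marker (of 7) was past the threshold, and all 9 B cell markers had a log2 fold change above 0. Their list mean was 5.33 to 6.02 on replicates 2 and 4 of both groups and 4.57 to 4.75 on replicates 1 and 3. Of 9 macrophage and monocyte markers 1 fell, Ly6c2, which T cells also carry, and the list mean was 4.63 to 4.75 and 4.52 to 4.84. Of 8 granulocyte and mast cell markers 2 rose, Cpa3 and Fcer1a, with a list mean of 4.09 to 4.26 on PBS arrays and 4.37 to 4.78 on hBD-2 arrays, and of 5 natural killer cell markers 1 fell, Klrc2 (4.81 to 5.04 and 4.53 to 4.89). None of 4 platelet and erythroid markers (5.81 to 6.20 and 6.06 to 6.41) or 7 stromal and endothelial markers (4.78 to 5.00 and 5.01 to 5.18) passed. The part of other cells in the values of the 9 genes was not tested.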

How the data were processed

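The deposited log2 values cover 22203 probe sets on 8 arrays in 1 table. Per the submitters' processing notes, the tools were oligo and RMA, with versions, settings and annotation build not given in the sources used here. RMA draws low signals towards a common floor, so fold changes of dim genes are understated. Scanner intensities were not used, and the number of arrays limits the precision. The platform's annotation gave 1 symbol for 19572 probe sets, none with several, and 2631 stayed unnamed. Where a gene had more than 1 probe set (55 genes), the brightest by mean was used. limma 3.58.1 in R 4.3.3 (lmFit, eBayes, no block) compared hBD-2 with PBS, two-sided, and was tested on simulated data. Groups follow the sample titles. The labels name no pairs, so the replicate numbers were not used as pairs in the main fit. The correlation of deviations was over 0.1 in 2 of 4 same-numbered pairs (0.00482 to 0.181). It was lower than that in every other pair (-0.154 to 0.0906). The fit with the replicate number as a block is given below. No set test was run.

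The genes and lists were chosen with earlier results of these data known. All measured members were named. Of each related list, genes past the threshold, or otherwise the 2 with the smallest p, were named, with 12 fixed genes. Il27ra, Il12rb2, Ctla4 and the named markers other than Cd4, Cd8a and Cd3e were chosen after their values were seen. Alternatives were other normalizations, variance models, a level filter, other probe set choices, the replicate number as a block and leaving out arrays. The omission of replicates 2 and 4 of both groups was added after seeing the data.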

Additional observations from a re-analysis of the deposited data

Results flagged for a closer look

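In 38 named genes and both groups, 76 groups of 4 arrays were checked for an array far from the other 3, and 5 were found, where chance gives about 1 in 20. No such array was found for any of the 9 signature genes. Prdm1 was at 5.34 on PBS replicate 3, against 5.77 to 5.81 on the other PBS arrays. Xbp1 was at 8.96 on hBD-2 replicate 1, against 8.37 to 8.44 on the others. Il6st was at 9.57 on hBD-2 replicate 3, against 9.46 to 9.47. Il12a was at 2.81 on PBS replicate 3, against 3.16 to 3.21, and Il27 at 4.07 on PBS replicate 2, against 3.79 to 3.82.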

How the results depend on the processing

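The fall of Ebi3 stayed past the threshold in all settings except 2 that leave fewer arrays. The first was the omission of hBD-2 replicates 3 and 4, where 0 of the 9 genes changed (0 lower) and 2 related genes did, of 128 among all genes. The second was the omission of replicates 2 and 4 of both groups, chosen after seeing the data. There 0 of the 9 (0 lower) and 0 related genes passed, of 8 among all genes. Changed signature genes numbered 2 (1 of them higher, Ikzf2) after each of quantile normalization, cyclic loess, removal of the level trend, and omission of genes under percentile 40. With a variance trend they numbered 3 (1 higher, 2 lower), and 29 related genes passed. Calls over all genes moved too, from 869 to 2032 with a variance trend and to 1541 with genes under percentile 40 left out. They numbered 748 after quantile normalization, 796 after cyclic loess and 794 with the level trend removed. With any 1 array left out, 1 to 2 signature genes changed (0 to 1 higher, 1 to 2 lower) and 6 to 18 related genes. With the replicate number as a block, the log2 fold change of Ebi3 was -0.75 (limma adjusted p = 0.00665), that of Ikzf2 was 0.38 (0.0766), and 1 signature gene changed, as without it. Under the block Vegfa no longer passed (0.0626) and Slc19a1 did (0.0430), and no other named gene changed its call; PBS arrays correlated best with their own number in 2 of 4 cases and hBD-2 arrays in 3 of 4. All genes past the threshold numbered 869 and, with single arrays left out, 312 to 1396.

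Signs turned for values that never passed the threshold. Ikzf1 was at 0.036 after quantile normalization, 0.030 after cyclic loess and 0.024 with the level trend removed, and Cd3e at 0.0078 with quantile normalization. Without hBD-2 replicates 3 and 4, Lrrc32 was at 0.018, Ikzf1 at 0.033, Tgfb1 at -0.0016, Itgb7 at -0.046 and Il12a at -0.0056. Without replicates 2 and 4 of both groups, Ikzf4 was at 0.10, Gpr83 at 0.14 and Itgb7 at -0.15. With single arrays left out, Itgae ranged from -0.23 to 0.075, Itgb7 from -0.041 to 0.098, Il12a from -0.025 to 0.13 and Cd4 from -0.010 to 0.10.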
